A study of Mus musculus with 12 samples.

Results

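The genes described here encode 9 channels, pumps and cotransporters that move salt and water across the lung: Scnn1a, Scnn1b and Scnn1g, the alpha, beta and gamma subunits of the epithelial sodium channel, Atp1b1, the beta 1 subunit of the Na,K-ATPase, the water channels Aqp1, Aqp3 and Aqp4, the chloride channel Cftr, and Slc12a2, the sodium-potassium-chloride cotransporter NKCC1. They were taken by symbol from 22180 genes named on the array, and each of the 9 was carried by 1 transcript row. The samples were 12 lungs of newborn mice, 1 array per mouse and 3 mice in each of 4 groups: Sphk1-/- pups in hyperoxia (Sphk1-/- HO), Sphk1-/- pups in room air (Sphk1-/- RA), wild type pups in hyperoxia (WT HO) and wild type pups in room air (WT RA). Hyperoxia was 75% oxygen for 7 days from postnatal day 1, given to the pups together with nursing dams that were exchanged between chambers. Sphk1 makes the lipid signal sphingosine-1-phosphate. The Sphk1-/- pups carried the deletion in every cell and came from a line only partly crossed back to C57BL/6. The paper describes its wild type controls as having the mixed background that resulted from this cross. Perfused tissue of the superior right lobe was measured whole. Nothing states that the 3 pups of a group came from different litters, so the p-values below measure the spread between these pups only.

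Before birth the lung epithelium secretes chloride and fluid fills the airspaces, and around birth it switches to absorbing sodium. Sodium enters the cell from the airspace through the epithelial sodium channel, which needs its alpha subunit to work and reaches full current with the beta and gamma subunits. The Na,K-ATPase pumps that sodium out on the opposite face, chloride passes through Cftr and other channels, and water follows through the cell layer and through aquaporins. Slc12a2 works in the other direction, since it loads the cell with chloride for secretion.

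The row named Sphk1 had 5.57 to 6.28 on the log2 scale in Sphk1-/- HO lungs and 5.59 to 5.84 in Sphk1-/- RA lungs, against 6.79 to 7.50 in WT HO and 4.90 to 5.40 in WT RA lungs. It was therefore lower in the mutant in hyperoxia but not in room air. No source states whether this row covers the deleted exons, so it does not check the genotype labels, and groups are named as labelled. Y-linked genes were high on 2 of 3 Sphk1-/- HO, 1 of 3 Sphk1-/- RA, 0 of 3 WT HO and 1 of 3 WT RA arrays, and Xist was high on the other 8 of 12, although the study describes male pups. Whole lung RNA cannot tell fewer cells of a type from less RNA per cell. Among lung markers, Sftpc, the surfactant gene of alveolar type 2 cells, averaged 13.20 in Sphk1-/- HO, 13.32 in Sphk1-/- RA, 12.67 in WT HO and 13.30 in WT RA lungs, and Ager, a marker of flat alveolar type 1 cells, had its lowest mean of 11.46 in Sphk1-/- RA lungs, so both alveolar types were represented in every group.

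In wild type pups, hyperoxia raised the alpha and beta subunits of the sodium channel and the beta 1 subunit of the pump, and lowered Aqp1. In Sphk1-/- pups it raised all 3 channel subunits, Aqp3 and Slc12a2, and the changes of Atp1b1 and Aqp1 did not pass the test. By limma with Benjamini-Hochberg adjusted p under 0.05, 3 of the 9 genes were higher in WT HO than in WT RA lungs and 1 was lower, while 8.58% of all 41345 rows were higher and 6.35% lower. Between Sphk1-/- HO and Sphk1-/- RA lungs, 5 of the 9 were higher and 0 lower, against 1.02% and 1.32% of all rows. The Sphk1-/- count was not steady: it was 2 or 3 in each fit that left out 1 array of that comparison and 0 with only those 6 arrays fitted. At an unadjusted p under 0.05, 6 of the 9 passed in Sphk1-/- pups, against 14% of all rows, and 5 of the 9 in wild type pups, against 26.6%. The median log2 difference over the 9 genes was 0.53 in Sphk1-/- and 0.19 in wild type pups, with -0.0033 and 0.0086 over all rows.

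**Figure D1:**
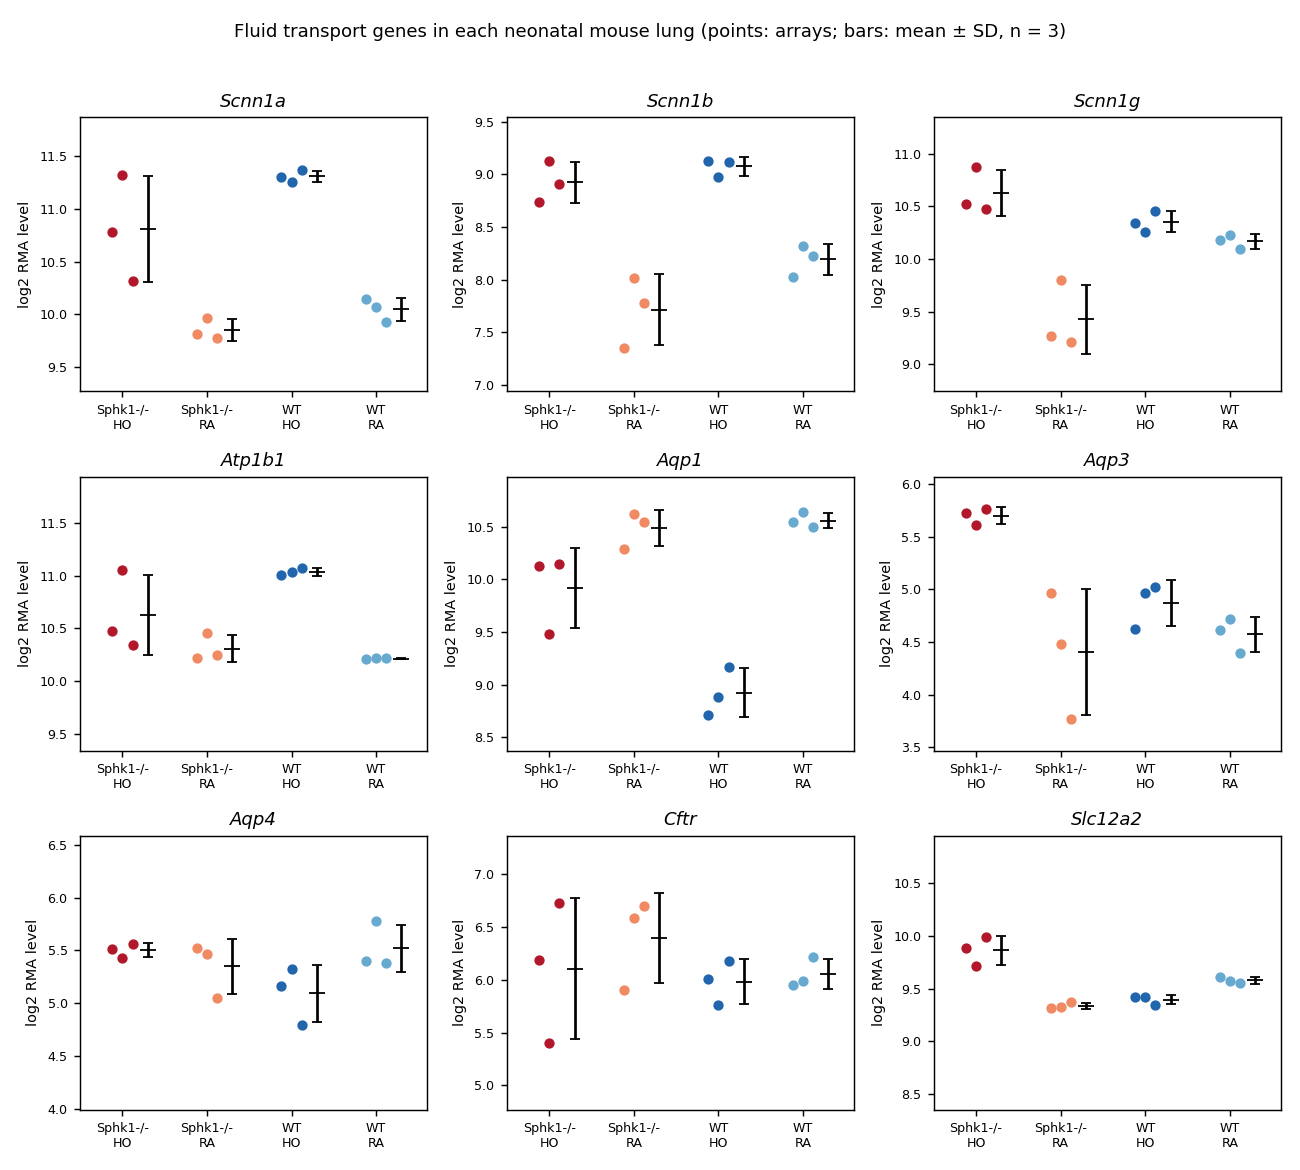
Log2 level (RMA, vertical axis, the same span in every panel) of each of the 9 genes on the 12 arrays, by group, with the mean and SD of 3 arrays beside the points. The panels of Scnn1a, Scnn1b and Scnn1g show hyperoxia above room air in Sphk1-/- pups, the Aqp1 panel shows the lowest values in WT HO lungs (8.71 to 9.17), and one Sphk1-/- HO array stands at 11.32 for Scnn1a and 11.05 for Atp1b1, near the WT HO arrays.

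Scnn1a, the pore subunit of the sodium channel that the newborn lung needs to clear its fluid, had 10.78, 11.32 and 10.32 in Sphk1-/- HO lungs, against 9.82, 9.97 and 9.77 in Sphk1-/- RA lungs. The wild type values were 11.30, 11.26 and 11.37 in hyperoxia, against 10.14, 10.07 and 9.93 in room air. Hyperoxia and room air did not overlap in either genotype. The log2 difference was 0.96 ± 0.21 (SE, adjusted p = 0.0367) in Sphk1-/- pups and 1.26 ± 0.21 (adjusted p = 0.00169) in wild type pups, or 1.94-fold and 2.40-fold. The responses of the genotypes differed by -0.31 (95% CI -0.95 to 0.33, adjusted p = 0.67), a difference that was not detected and whose interval spans both directions. The Sphk1-/- call is weak: it was lost when any array of the comparison other than the third Sphk1-/- HO array was left out, with adjusted p between 0.0706 and 0.123.

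Scnn1b, the beta subunit, rose in both genotypes. It had 8.74, 9.13 and 8.91 in Sphk1-/- HO lungs, against 7.35, 8.02 and 7.78 in Sphk1-/- RA lungs, and 9.13, 8.98 and 9.12 in WT HO lungs, against 8.03, 8.32 and 8.23 in WT RA lungs. The difference was 1.21 ± 0.18 (adjusted p = 0.00535) in Sphk1-/- and 0.88 ± 0.18 (adjusted p = 0.00565) in wild type pups, which is 2.31-fold and 1.84-fold. The Sphk1-/- call passed with any 1 array left out, but not with only the 2 groups compared in the fit (adjusted p = 0.0948). Every hyperoxia array lay above every room air array of its genotype, and the genotypes' responses were not told apart (0.33, 95% CI -0.22 to 0.87, adjusted p = 0.575).

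Scnn1g was the subunit whose response differed between genotypes. Its values were 10.52, 10.88 and 10.47 in Sphk1-/- HO lungs, against 9.27, 9.80 and 9.21 in Sphk1-/- RA lungs, a rise of 1.20 ± 0.17 (adjusted p = 0.00479, 2.29-fold). In wild type pups the values were 10.34, 10.26 and 10.46 in hyperoxia, against 10.18, 10.23 and 10.09 in room air, a difference of 0.19 (95% CI -0.19 to 0.57, adjusted p = 0.556). That rise passed with any 1 array left out, but not with only the 2 groups compared in the fit (adjusted p = 0.096). The 4 groups did not overlap, with Sphk1-/- HO highest, then WT HO, WT RA and Sphk1-/- RA. The interaction, which is the response of Sphk1-/- pups minus that of wild type pups, was 1.01 ± 0.24 (adjusted p = 0.0376). Scnn1g was 0.27 higher in Sphk1-/- HO than in WT HO lungs (adjusted p = 0.472) and 0.74 lower in Sphk1-/- RA than in WT RA lungs (adjusted p = 0.0726), neither of which passed alone. This interaction sits near the threshold: it was lost in 11 of the 12 fits that left out 1 array, with values of 0.88 to 1.08 and adjusted p up to 0.0933. The room air difference passed without the second Sphk1-/- RA array (-0.93, adjusted p = 0.0318).

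Within an array, the log2 difference of Scnn1a minus Scnn1g gives how the subunit transcripts shifted against each other. This measure was chosen after the values were seen. In wild type pups it was 1.07 higher in hyperoxia than in room air, and in Sphk1-/- pups -0.24, that is, slightly lower in hyperoxia. By a two-sided exact permutation test, p was 0.1 in wild type pups, the smallest that 3 against 3 allows, and 0.3 in Sphk1-/- pups. The differences of the alpha, beta and gamma subunits between hyperoxia and room air were 0.96, 1.21 and 1.20 in Sphk1-/- pups and 1.26, 0.88 and 0.19 in wild type pups.

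Scnn1b and Scnn1g lie next to each other in mouse and share a direction on 1 strand, so their promoters are shown to compare neighbours whose wild type responses were 0.88 and 0.19. The sequences are the 250 bases before the RefSeq start of each gene (GRCm38.p6, plus strand, written 5′ to 3′), and capitals mark motif matches. Promoters were found for 6 of the 9 genes; Scnn1a, Aqp4 and Slc12a2 had none in the table. The motifs searched on both strands were the TATA box core TATAAA, the glucocorticoid receptor site core TGTTCT, the GC box GGGCGG and the antioxidant response element core TGACNNNGC, which stand in 12.4%, 16.1%, 32.7% and 10.2% of the 250-base windows of all 32851 promoters.
Scnn1b, chr7:121864788-121865037: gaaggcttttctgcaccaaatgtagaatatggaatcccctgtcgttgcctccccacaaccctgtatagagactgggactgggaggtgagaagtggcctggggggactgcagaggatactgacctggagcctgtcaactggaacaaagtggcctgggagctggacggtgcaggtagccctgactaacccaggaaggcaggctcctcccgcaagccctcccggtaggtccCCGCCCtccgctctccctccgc
Scnn1g, chr7:121734229-121734478: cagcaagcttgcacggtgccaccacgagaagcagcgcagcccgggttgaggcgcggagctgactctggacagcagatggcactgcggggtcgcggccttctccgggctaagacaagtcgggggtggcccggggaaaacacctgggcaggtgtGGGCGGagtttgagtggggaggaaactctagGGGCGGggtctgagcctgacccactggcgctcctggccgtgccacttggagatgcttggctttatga
Scnn1b holds 1 GC box, starting 22 bases before the start, and Scnn1g holds 2, at 98 and 67 bases. Neither window holds a match to the other 3 motifs. A match is only a description of the letters, and both windows are rich in G and C (60.8% and 65.2%).

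Atp1b1 encodes the beta subunit that carries the sodium pump to the basolateral membrane. It had 10.47, 11.05 and 10.34 in Sphk1-/- HO lungs, against 10.21, 10.45 and 10.25 in Sphk1-/- RA lungs, which overlapped. In wild type pups it had 11.00, 11.03 and 11.07 in hyperoxia, against 10.20, 10.22 and 10.22 in room air, with arrays of each group almost superimposed. The difference was 0.32 (95% CI -0.05 to 0.69, adjusted p = 0.453) in Sphk1-/- pups and 0.82 ± 0.17 (adjusted p = 0.0066, 1.77-fold) in wild type pups. The interaction did not pass (-0.51, 95% CI -1.03 to 0.02, adjusted p = 0.316). Much of that turns on the second Sphk1-/- HO array, which reached the WT HO level: without it the interaction was -0.72 (adjusted p = 0.0338), and Sphk1-/- HO was below WT HO for Atp1b1 (-0.63, adjusted p = 0.0136) and for Scnn1a (-0.76, adjusted p = 0.0171), where with all arrays the differences were -0.41 (adjusted p = 0.217) and -0.50 (adjusted p = 0.22). The same array had the highest neutrophil marker score of its group (mean of 5 marker genes, each centred over the 12 arrays, 1.48 against 0.27 and 0.12) and the lowest score of 6 cardiac muscle markers (-0.58 against 0.58 and 0.55). Their part in these values was not tested.

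Aqp1, the water channel of lung capillaries and of red cells, fell in wild type pups, and was the largest change among the 9 genes. It had 10.13, 9.48 and 10.15 in Sphk1-/- HO lungs, against 10.29, 10.62 and 10.55 in Sphk1-/- RA lungs. In wild type pups it had 8.71, 8.88 and 9.17 in hyperoxia, against 10.54, 10.64 and 10.50 in room air. Aqp1 fell by 1.64 ± 0.19 on the log2 scale in wild type pups (adjusted p = 0.000199, 3.11-fold lower), and its difference of -0.57 in Sphk1-/- pups (95% CI -0.99 to -0.14) did not pass (adjusted p = 0.182), although the groups did not overlap. Aqp1 was 1.00 ± 0.19 higher in Sphk1-/- HO than in WT HO lungs (adjusted p = 0.0111) and the interaction was 1.07 ± 0.27 (adjusted p = 0.0482). In room air the genotypes differed by -0.07 (95% CI -0.50 to 0.35, adjusted p = 0.921). With the replicate number as a block the interaction did not pass (adjusted p = 0.0572). It was also lost in 10 of the 12 fits without 1 array, with adjusted p up to 0.117, and the difference between hyperoxic genotypes when WT HO 1, Sphk1-/- HO 1 or Sphk1-/- HO 3 was left out (adjusted p = 0.0514, 0.051 and 0.0541).

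Endothelial and red cell markers also changed with hyperoxia, not all in the pattern of Aqp1. Of 8 endothelial markers, 0 rose and 2 fell in wild type pups in hyperoxia, and 0 rose and 3 fell in Sphk1-/- pups. Of all rows, 6.35% fell in wild type and 1.32% in Sphk1-/- pups. Between Sphk1-/- HO and WT HO lungs, 1 of the 8 was higher and 2 were lower. The VEGF receptor gene Kdr fell by 0.99 in wild type pups (adjusted p = 0.0096) and differed by 0.34 in Sphk1-/- pups (adjusted p = 0.565), while Tek, the angiopoietin receptor gene, differed by -1.55 and -1.71 in Sphk1-/- and wild type pups (adjusted p = 0.000658 and 3.56e-05). Gpihbp1, another of the 8, averaged 7.30 in Sphk1-/- HO, 9.16 in Sphk1-/- RA, 8.40 in WT HO and 8.70 in WT RA lungs. The mean of the 8 centred endothelial markers ran from -0.47 to -0.15 in Sphk1-/- HO, 0.14 to 0.40 in Sphk1-/- RA, -0.20 to -0.08 in WT HO and 0.13 to 0.21 in WT RA lungs. Its group means were -0.32, 0.30, -0.15 and 0.16 in that order. This score fell more in Sphk1-/- pups, while Aqp1 fell more in wild type pups. Red cell markers with a value of their own were Slc4a1, the anion exchanger of the red cell membrane, and Epb42, a protein of its skeleton (2 of 8 listed). Slc4a1 averaged 6.91 in Sphk1-/- HO, 7.27 in Sphk1-/- RA, 5.09 in WT HO and 8.83 in WT RA lungs, and Epb42 averaged 4.72, 4.62, 4.01 and 5.20 in that order, its WT HO mean being under 4.29, the 40th percentile of all rows. Slc4a1 fell by 3.74 in wild type pups (adjusted p = 6.18e-06) and differed by -0.36 in Sphk1-/- pups (adjusted p = 0.629). The part of red cells and of endothelium in the Aqp1 values was not tested.

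Aqp3 is an aquaglyceroporin of airway and other epithelia, passing water and glycerol. Its levels were low: 5.72, 5.61 and 5.77 in Sphk1-/- HO lungs, against 4.97, 4.48 and 3.77 in Sphk1-/- RA lungs, and 4.62, 4.97 and 5.02 in WT HO lungs, against 4.61, 4.72 and 4.39 in WT RA lungs. The 3 Sphk1-/- HO arrays lay above all other 9 arrays, and 1 Sphk1-/- RA array lay below 4.29. Aqp3 rose by 1.29 ± 0.25 (adjusted p = 0.0216, 2.45-fold) in Sphk1-/- pups and differed by 0.30 (95% CI -0.25 to 0.84, adjusted p = 0.511) in wild type pups. Neither the interaction (0.99, adjusted p = 0.16) nor the difference of 0.83 between Sphk1-/- HO and WT HO lungs (adjusted p = 0.0834) passed. The rise in Sphk1-/- pups was lost without the second Sphk1-/- RA array or any of the 3 Sphk1-/- HO arrays (adjusted p = 0.0518 to 0.0638), and without the first Sphk1-/- RA array the interaction passed (1.27, adjusted p = 0.0321).

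Aqp4, the water channel of the basolateral face of airway cells, showed no call. It had 5.52, 5.43 and 5.56 in Sphk1-/- HO lungs, against 5.53, 5.47 and 5.05 in Sphk1-/- RA lungs, and 5.16, 5.32 and 4.80 in WT HO lungs, against 5.40, 5.78 and 5.38 in WT RA lungs. The wild type groups did not overlap, yet the difference of -0.43 (95% CI -0.82 to -0.03) had an adjusted p of 0.151, and that in Sphk1-/- pups was 0.16 (95% CI -0.24 to 0.55, adjusted p = 0.8).

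The promoters of Aqp1 and Aqp3 are shown because Aqp3 rose in Sphk1-/- pups and Aqp1 fell in wild type pups. They are again the 250 bases before the RefSeq start (GRCm38.p6, written 5′ to 3′ on the strand of the gene, which is plus for Aqp1 and minus for Aqp3), with matches to the same 4 motifs in capitals.
Aqp1, chr6:55336049-55336298: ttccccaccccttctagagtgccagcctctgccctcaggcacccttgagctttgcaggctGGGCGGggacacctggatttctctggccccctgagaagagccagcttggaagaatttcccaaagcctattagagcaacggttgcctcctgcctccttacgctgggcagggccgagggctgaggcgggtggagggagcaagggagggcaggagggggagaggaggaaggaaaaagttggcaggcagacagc
Aqp3, chr4:41098184-41098433: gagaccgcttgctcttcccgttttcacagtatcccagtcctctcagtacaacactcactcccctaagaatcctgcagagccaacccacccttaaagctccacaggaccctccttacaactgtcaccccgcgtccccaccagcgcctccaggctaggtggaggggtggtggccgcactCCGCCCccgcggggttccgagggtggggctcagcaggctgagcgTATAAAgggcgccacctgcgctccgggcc
Aqp3 is the only one of the 6 promoters found that holds TATAAA, 29 bases before the start, where a TATA box usually lies, and it also holds 1 GC box at 73 bases. Aqp1 holds 1 GC box at 190 bases and no TATA box core. The glucocorticoid receptor site core and the antioxidant response element core had no match in any of the 6 windows.

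Cftr, the chloride channel whose loss causes cystic fibrosis, showed no detectable response. Its values were 6.19, 5.40 and 6.73 in Sphk1-/- HO lungs, against 5.91, 6.58 and 6.70 in Sphk1-/- RA lungs, and 6.01, 5.76 and 6.18 in WT HO lungs, against 5.95, 5.99 and 6.22 in WT RA lungs. The groups overlapped in both genotypes, and Sphk1-/- HO had the widest spread of any of the 9 genes in any group (SD 0.67, n = 3). The differences were -0.29 (95% CI -0.95 to 0.38, adjusted p = 0.771) in Sphk1-/- and -0.07 (95% CI -0.73 to 0.59, adjusted p = 0.925) in wild type pups, intervals that leave room for changes of either sign. Of 5 ionocyte markers, 1 rose and 1 fell in wild type pups, and 0 rose and 1 fell in Sphk1-/- pups. Over all rows, 14.9% and 2.34% passed in either direction. Among these markers Foxi1, the factor that defines the Cftr-rich ionocytes of the airway, averaged between 5.76 and 5.84 in the 4 groups. Atp6v0d2 averaged 7.60 in WT HO and 5.72 in WT RA lungs, and Atp6v1c2 averaged 6.08 and 6.81. Their part in the Cftr values was not tested.

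Slc12a2, which brings sodium, potassium and chloride into the cell, responded in Sphk1-/- pups. It had 9.89, 9.71 and 9.99 in Sphk1-/- HO lungs, against 9.31, 9.32 and 9.37 in Sphk1-/- RA lungs, and 9.42, 9.42 and 9.35 in WT HO lungs, against 9.61, 9.57 and 9.55 in WT RA lungs. Hyperoxia and room air did not overlap in Sphk1-/- or in wild type pups. Slc12a2 rose by 0.53 ± 0.11 (adjusted p = 0.0328, 1.44-fold) in Sphk1-/- pups and differed by -0.18 (95% CI -0.43 to 0.06, adjusted p = 0.339) in wild type pups. The interaction was 0.71 ± 0.16 (adjusted p = 0.0247), and the Sphk1-/- HO level was 0.47 ± 0.11 above that of WT HO (adjusted p = 0.032). Leaving out 1 array kept the interaction between 0.65 and 0.78 but lost the call in 10 of 12 fits (adjusted p up to 0.0655). The rise in Sphk1-/- pups was lost in 5 of 6 such fits (adjusted p up to 0.104), as was the difference between hyperoxic genotypes (adjusted p up to 0.124).

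**Figure D2:**
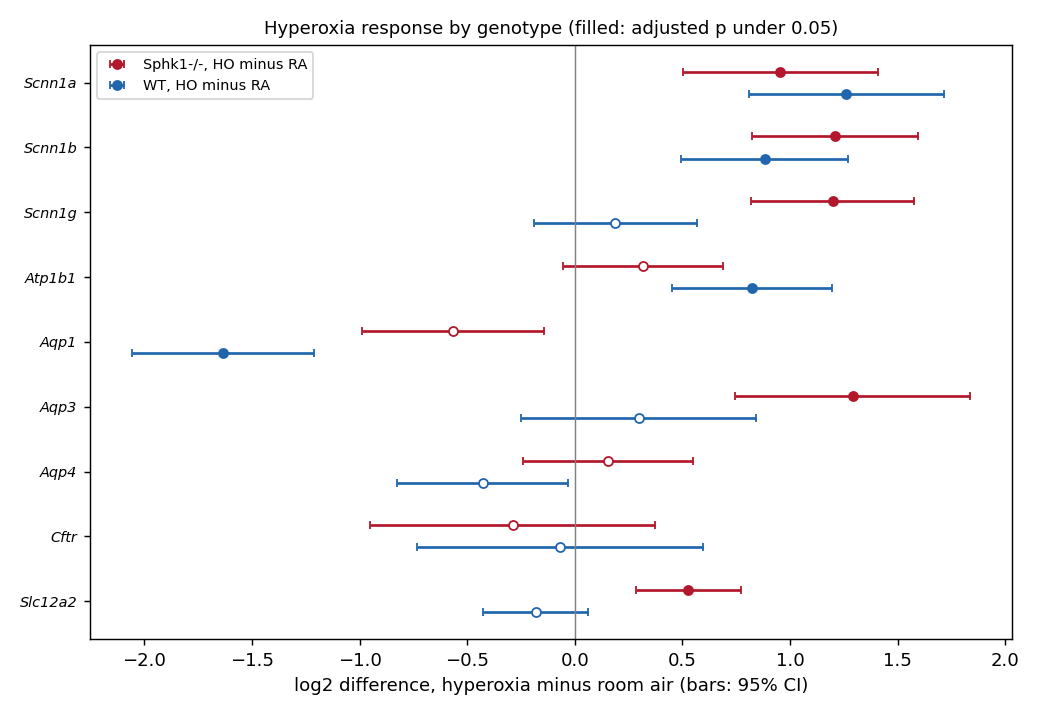
Log2 difference of hyperoxia minus room air (horizontal axis) of each of the 9 genes, Sphk1-/- pups above wild type pups, with 95% confidence intervals from the limma fit; filled points have an adjusted p under 0.05. Scnn1a and Scnn1b are filled in both genotypes, Scnn1g, Aqp3 and Slc12a2 only in Sphk1-/-, and Atp1b1 and Aqp1 only in wild type pups.

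Across the direct comparisons of genotype, 0 of the 9 genes passed between Sphk1-/- RA and WT RA lungs, where 1.15% of all rows did, and 2 of the 9 had an unadjusted p under 0.05 (Scnn1b and Scnn1g), against 12.9% of all rows. Scnn1b was 0.48 lower there (95% CI of the log2 difference -0.86 to -0.09, adjusted p = 0.271). Between Sphk1-/- HO and WT HO lungs, 2 of the 9 were higher and 0 lower, against 2.82% and 2.92% of all rows. The interaction passed for 3 of the 9, against 4.79% of all rows, and all 3 (Scnn1g, Aqp1 and Slc12a2) were positive. These comparisons share arrays with one another and are not independent. When the fit was limited to the 8 arrays with high Xist, with 1 Sphk1-/- HO array left, 4 of the 9 genes passed in wild type pups, 2 between Sphk1-/- HO and WT HO lungs, and 0 in Sphk1-/- pups, in room air or in the interaction. The lone Sphk1-/- HO array is assumed there to vary like the other groups. In that fit the Sphk1-/- responses were 0.45 for Scnn1a, 1.01 for Scnn1b, 0.97 for Scnn1g, 1.64 for Aqp3 and 0.64 for Slc12a2, and the interactions 0.82 for Scnn1g, 1.23 for Aqp1 and 0.84 for Slc12a2.

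Partners of the pump and channels were taken from lists of genes with these roles. Beside the counts of these lists and of the cell marker lists, 2.34% of all rows passed in either direction in Sphk1-/- pups and 14.9% in wild type pups. A higher count in wild type pups was therefore also seen over all rows. Of 7 other Na,K-ATPase subunits and FXYD regulators with a value, 1 rose and 1 fell in Sphk1-/- pups, and 2 rose and 1 fell in wild type pups. Fxyd5, a small protein that binds the pump and loosens cell contacts, was 0.71 higher in Sphk1-/- HO than in Sphk1-/- RA lungs (adjusted p = 0.0153) and 1.47 higher in WT HO than in WT RA lungs (adjusted p = 2.77e-05), with an interaction of -0.76 (adjusted p = 0.038). Atp1b2, another beta subunit, had differences of -1.22 (adjusted p = 0.00312) and -1.05 (adjusted p = 0.00122) in Sphk1-/- and wild type pups, opposite to Atp1b1. Fxyd6 rose by 0.46 in wild type pups (adjusted p = 0.048) and was 1.03 lower in Sphk1-/- HO than in WT HO lungs (adjusted p = 0.00148). With 1 array left out, the Fxyd5 interaction was lost in 10 of 12 fits, the Fxyd5 rise in Sphk1-/- pups in 2 of 6 and the Fxyd6 rise in wild type pups in 6 of 6 (adjusted p up to 0.0961, 0.067 and 0.167).

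Of 9 other aquaporins, 1 passed in each genotype, and it was Aqp5, the water channel of the apical face of alveolar type 1 cells. Aqp5 averaged 10.13 ± 0.33 in Sphk1-/- HO and 9.16 ± 0.30 in Sphk1-/- RA lungs, and 10.83 ± 0.08 in WT HO and 9.54 ± 0.11 in WT RA lungs (SD, n = 3 each). It rose by 0.98 in Sphk1-/- pups (adjusted p = 0.0221) and by 1.29 in wild type pups (adjusted p = 0.000857), and the rise in Sphk1-/- pups was lost in 3 of 6 fits without 1 array (adjusted p up to 0.0817). Of 9 alveolar type 1 markers, Aqp5 included, 2 rose and 0 fell in Sphk1-/- pups, and 4 rose and 2 fell in wild type pups. Of 10 alveolar type 2 markers, 0 rose and 0 fell in Sphk1-/- pups, and 0 rose and 7 fell in wild type pups. The centred type 1 score ran from 0.20 to 0.35 in Sphk1-/- HO, -0.51 to -0.13 in Sphk1-/- RA, 0.18 to 0.20 in WT HO and -0.15 to -0.10 in WT RA lungs, and the type 2 score from -0.07 to 0.12, -0.01 to 0.41, -0.67 to -0.20 and 0.15 to 0.19. Of 6 ciliated cell markers, 1 rose in Sphk1-/- and 5 rose in wild type pups. Their part in the sodium channel and pump values was not tested.

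Genes that control the sodium channel are kinases, ubiquitin ligases, proteases and steroid enzymes. Of 20 measured regulators and proteases, 1 rose and 3 fell in Sphk1-/- pups (median difference 0.02), and 9 rose and 3 fell in wild type pups (median 0.51). Over all rows, 2.34% passed in either direction in Sphk1-/- pups and 14.9% in wild type pups, and the counts of the genotypes were not compared by a test. Sgk1, the kinase that keeps the channel at the membrane, differed by 0.23 (adjusted p = 0.519) in Sphk1-/- and 0.17 (adjusted p = 0.497) in wild type pups. Nedd4l, the ubiquitin ligase that removes the channel from the membrane, differed by 0.01 in Sphk1-/- pups (adjusted p = 0.987) and rose by 1.02 in wild type pups (adjusted p = 0.000712). Its relative Nedd4 differed by -0.18 (adjusted p = 0.609) and fell by 1.18 (adjusted p = 0.000124) in the same order of genotypes. Their interactions passed in opposite directions, -1.01 for Nedd4l (adjusted p = 0.0167) and 1.00 for Nedd4 (adjusted p = 0.00945). St14, the membrane protease matriptase, which can activate the channel, rose by 1.07 in Sphk1-/- pups (adjusted p = 0.0185) and 0.98 in wild type pups (adjusted p = 0.00666). The protease inhibitor genes Spint1 and Spint2 of the same list also had higher means in hyperoxia. Spint1 averaged 8.31 in Sphk1-/- HO, 7.53 in Sphk1-/- RA, 8.74 in WT HO and 7.72 in WT RA lungs, and Spint2 averaged 8.97, 8.41, 8.98 and 8.40. The interactions of Nedd4l and Nedd4 passed in all 12 fits without 1 array, and the St14 rise in Sphk1-/- pups in 3 of 6 (adjusted p up to 0.0766).

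Of the genes of the list that are linked to glucocorticoids, Tsc22d3 and Hsd11b1 responded in opposite directions in the genotypes. Tsc22d3, known as GILZ and induced by glucocorticoids, fell by 0.87 in Sphk1-/- pups (adjusted p = 0.0294) and rose by 0.71 in wild type pups (adjusted p = 0.0195), with an interaction of -1.58 (adjusted p = 0.0043). Hsd11b1, which makes active glucocorticoid, fell by 0.80 in Sphk1-/- pups (adjusted p = 0.0234) and rose by 1.23 in wild type pups (adjusted p = 0.000335), with an interaction of -2.04 (adjusted p = 0.000332). Both were already higher in Sphk1-/- RA than in WT RA lungs, by 1.05 for Tsc22d3 (adjusted p = 0.0173) and 1.01 for Hsd11b1 (adjusted p = 0.0111). Hsd11b2, which inactivates glucocorticoid and protects the mineralocorticoid receptor, fell in both genotypes, by 0.91 (adjusted p = 0.025) in Sphk1-/- and 1.15 (adjusted p = 0.00134) in wild type pups. The glucocorticoid receptor gene Nr3c1 of the same list averaged 8.47 in Sphk1-/- HO, 8.84 in Sphk1-/- RA, 8.03 in WT HO and 8.71 in WT RA lungs. Its hyperoxia arrays lay below the room air arrays in both genotypes, so not every gene of this kind went in opposite directions. Bpifa1, a secreted airway protein that can restrain the channel, differed by -0.48 in Sphk1-/- pups (adjusted p = 0.857) and rose by 3.73 in wild type pups (adjusted p = 0.00507), with an interaction of -4.21 ± 1.03 (adjusted p = 0.0412). Its WT RA mean of 4.05 lay under the 40th percentile of all rows (4.29), near background. The interactions of Tsc22d3 and Hsd11b1 passed in all 12 fits that left out 1 array, and that of Bpifa1 was lost in 9 (adjusted p up to 0.101). The separate comparisons were less steady: the falls of Tsc22d3, Hsd11b1 and Hsd11b2 in Sphk1-/- pups were each lost in 4 of 6 such fits (adjusted p up to 0.109), the rise of Tsc22d3 in wild type pups in 3 of 6, and the room air differences of Tsc22d3 and Hsd11b1 in 5 and 3 of 6.

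**Figure D3:**
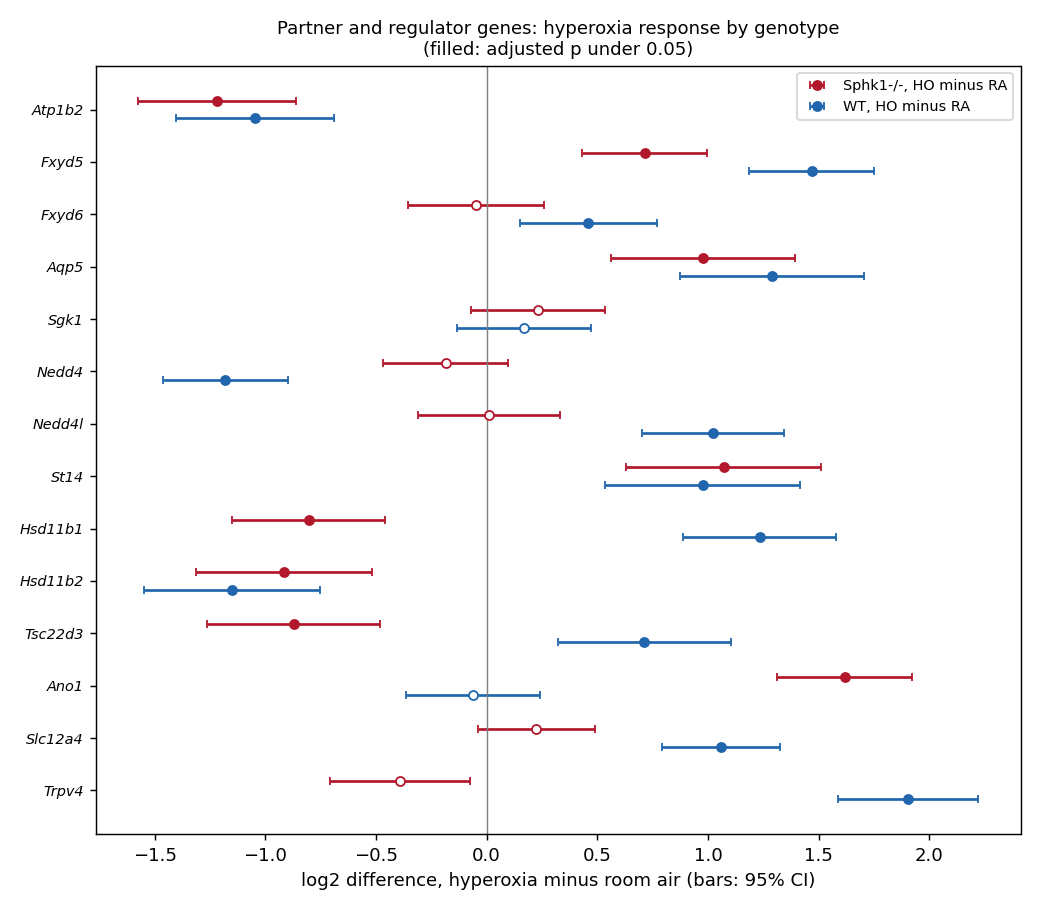
Log2 difference of hyperoxia minus room air (horizontal axis) of 14 partner and regulator genes, Sphk1-/- pups above wild type pups, with 95% confidence intervals; filled points have an adjusted p under 0.05. The intervals of the genotypes lie apart for Fxyd5, Nedd4, Nedd4l, Hsd11b1, Tsc22d3, Ano1, Slc12a4 and Trpv4, and overlap for Sgk1, Aqp5, St14 and Hsd11b2.

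Among 16 measured genes of chloride transport, 1 rose and 0 fell in Sphk1-/- pups, and 3 rose and 1 fell in wild type pups. The shares of all rows in either direction were 2.34% and 14.9%. Ano1, the calcium-activated chloride channel TMEM16A, rose by 1.62 in Sphk1-/- pups (adjusted p = 0.000255) and differed by -0.06 in wild type pups (adjusted p = 0.842). Its interaction was 1.68 (adjusted p = 0.000534), in the same direction as that of Slc12a2, and Ano1 was 0.66 lower in Sphk1-/- RA than in WT RA lungs (log2 difference -0.66, adjusted p = 0.0485). Slc12a4, a potassium-chloride exporter, differed by 0.23 (adjusted p = 0.456) in Sphk1-/- pups and rose by 1.06 (adjusted p = 0.000159) in wild type pups, with an interaction of -0.83 (adjusted p = 0.0168), opposite to that of Slc12a2. Clcn3 and Ezr rose in wild type pups by 0.73 (adjusted p = 0.0112) and 0.59 (adjusted p = 0.0198), and Slc26a9, an airway anion transporter, fell by 1.04 there (adjusted p = 0.0063). The Ano1 interaction passed in all 12 fits without 1 array and that of Slc12a4 in all except the one without WT RA 2 (adjusted p = 0.0505), while the room air difference of Ano1 was lost in 6 of 6 and the Ezr rise in 5 of 6.

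Of 15 other cation channels, 1 rose and 1 fell in Sphk1-/- pups, and 2 rose and 2 fell in wild type pups, beside the same 2.34% and 14.9% of all rows. Trpv4, a calcium channel that responds to stretch and swelling, differed by -0.39 in Sphk1-/- pups (adjusted p = 0.226) and rose by 1.91 in wild type pups (adjusted p = 9.94e-06), with an interaction of -2.30 (adjusted p = 9.78e-05). Asic2, an acid-sensing relative of the sodium channel, fell in both, by 1.17 (adjusted p = 0.0127) in Sphk1-/- and 0.90 (adjusted p = 0.0116) in wild type pups, to means of 4.25 in Sphk1-/- HO and 4.28 in WT HO lungs, just under the 40th percentile of all rows (4.29). The potassium channel subunit genes Kcne3 and Kcne2 moved apart in wild type pups, where Kcne3 rose by 0.47 (adjusted p = 0.0266) and Kcne2 fell by 1.29 (adjusted p = 0.000981). Piezo1, a mechanosensitive channel, rose by 0.57 in Sphk1-/- pups (adjusted p = 0.0339) and differed by 0.36 in wild type pups (adjusted p = 0.072). The Trpv4 interaction passed in all 12 fits without 1 array. The Piezo1 rise was lost in 5 of 6 and with the replicate number as a block (adjusted p = 0.0504), that of Kcne3 in 4 of 6, and the fall of Asic2 in 2 of 6 in Sphk1-/- and 1 of 6 in wild type pups.

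The genes whose centred values lay nearest to each of the 9 genes over the 12 arrays were found by root mean square difference among 22179 other named genes. Nearest to Scnn1a was Eya2 (0.16 log2 units, where Scnn1a itself varied by 0.62), followed by Thbs1 and Inf2. Scnn1b lay closest to Mif (0.09), then Ap1m2 and Aprt, and Scnn1g to Ap1s3 (0.18), Dsp and Vill. Atp1b1 was nearest to Aatf (0.09), Grhl1 and Ipo7. For Aqp1 the nearest were Thsd1 (0.12), Sdc2 and Vmn1r175, and for Aqp3 Vill (0.28), Apold1 and Pidd1, so that Vill was among the nearest of both Scnn1g and Aqp3. Aqp4, Cftr and Slc12a2, which varied by 0.25, 0.37 and 0.21, had Oacyl (0.12), Gstt1 (0.18) and Ifna13 (0.10) as nearest genes. Ifna13, with group means of 1.79 to 2.17, lay well under the 40th percentile of all rows (4.29) and Oacyl, with 4.09 to 4.43, close to it, near background. These distances describe likeness over these arrays only.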

How the data were processed

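The authors perfused the lungs, hybridised RNA of 1 lobe per mouse to Affymetrix MoGene 2.0 ST arrays and processed the scans in Partek Genomics Suite. The deposited values are log2 expression per transcript row after their robust multi-array average (RMA): background correction, quantile normalization and probe set summary. Quantile normalization forces equal distributions on all arrays before the probe set summary, so a shift of most genes could be hidden. The deposited transcript values were not fully equal, with array medians from 4.76 (WT HO 3) to 4.99 (Sphk1-/- RA 1). No genome build for the arrays was found in the labels or methods. Of 41345 rows, 23521 had 1 gene symbol in the platform annotation, 1820 had several and were not named, and 16004 had none listed.

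One mean per group was fitted over all 12 arrays with limma 3.58.1 (R 4.3.3) with moderated variances, and p-values were adjusted over all 41345 rows by Benjamini-Hochberg at a threshold of 0.05. Confidence intervals are at the 95% level. The number of arrays limits the precision, and 0 pairs of arrays held identical values. The fit was tested on simulated data. The 9 genes and the partner and marker lists were chosen with earlier results of these data known. Named partners were Aqp5, Sgk1 and Nedd4l and, per list and comparison, up to 4 genes with the smallest adjusted p; the nearest 3 genes are given for each of the 9, and the highest row was used where a symbol had several. Alternatives changed the variance estimate, the arrays fitted, the scaling, a low filter, a replicate block and a covariate from Y-linked genes. A further setting averaged all rows of a symbol for the 9 genes, which changed nothing because each had 1 row. Same-numbered arrays deviated together in all 3 pairs of Sphk1-/- HO with Sphk1-/- RA (correlation over 0.1) but not in every pair of the other comparisons, so the block is given as an alternative. Promoter sequences came from RefSeq (GRCm38.p6).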

Additional observations from a re-analysis of the deposited data

Results flagged for a closer look

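The limma interaction, the response of Sphk1-/- pups minus that of wild type pups, tests the difference between genotypes itself. It passed for 3 of the 9 transport genes, against 4.79% of all rows: Scnn1g (1.01), Aqp1 (1.07) and Slc12a2 (0.71). Among the partner genes it was positive for Ano1 (1.68) and Nedd4 (1.00). It was negative for Fxyd5 (-0.76), Slc12a4 (-0.83), Nedd4l (-1.01), Tsc22d3 (-1.58), Hsd11b1 (-2.04), Trpv4 (-2.30) and Bpifa1 (-4.21). For Tsc22d3 and Hsd11b1 the response passed the test in both genotypes with opposite signs. These values share arrays, so the flags are not independent of one another. With 1 array left out, the interaction call was lost in 11 of 12 fits for Scnn1g and in 10 for Aqp1, Slc12a2 and Fxyd5. It was lost in 9 for Bpifa1, 1 for Slc12a4 and 0 for the other flagged genes. The falls of Tsc22d3 and Hsd11b1 in Sphk1-/- pups were each lost in 4 of 6 such fits.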

How the results depend on the processing

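Of the 14 values called for the 9 genes, the direction held in all 151 values from the other settings (36 lost the call) and in all 102 values with 1 array left out (53 lost it). In many of the 151 the direction could not turn. The variance settings, the compared groups alone, the low filter, the replicate block and row averaging leave each log2 difference as it was. The count in wild type pups was 4 of 9 in every fit run. In Sphk1-/- pups 5 of 9 became 3 with ordinary residual variance, with the Y-linked covariate or without Sphk1-/- RA 1 and Sphk1-/- HO 1, and 0 with only the compared groups fitted or only the arrays with high Xist. The interaction count of 3 became 1 with ordinary variance or arrays centred on their median, and 0 with only the high Xist arrays or without the same 2 arrays. Between Sphk1-/- HO and WT HO the count of 2 became 1 with only the compared groups, with median centring and without those 2 arrays, and between Sphk1-/- RA and WT RA 0 became 1 with a trended robust prior or the low filter (Scnn1g, adjusted p = 0.0456 and 0.0452). Leaving out 1 array gave 2 to 3 genes in Sphk1-/- pups, 0 to 3 in the interaction, 0 to 4 between hyperoxic groups, 0 to 1 between room air groups and 4 in wild type pups.

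Signs turned only for values that had not passed: the Cftr interaction was 0.0853 with the Y-linked covariate. With only the high Xist arrays, Cftr differed by 0.0120 in wild type pups, 0.0895 in Sphk1-/- pups and 0.0775 in the interaction, and Atp1b1 by -0.0075 in Sphk1-/- pups. Without the 2 arrays named above, Aqp1 differed by 0.0239 in room air. With 1 array left out, Cftr ran from -0.17 to 0.0404 in wild type pups, -0.60 to 0.0620 in Sphk1-/- pups, -0.53 to 0.13 in the interaction and -0.19 to 0.47 between hyperoxic groups, and in room air Aqp1 ran from -0.14 to 0.0239 and Aqp3 from -0.45 to 0.15. The 2 last settings, high Xist arrays and without 2 arrays, were chosen after seeing the data. The 2 arrays, Sphk1-/- RA 1 and Sphk1-/- HO 1, had the lowest median correlations with the rest of their group (0.963 and 0.964). The centred score of 6 adipocyte markers was 1.07 on Sphk1-/- RA 1, against -0.47 and -0.39 on the other arrays of its group. Its part in the Sphk1-/- RA values was not tested. The 62 called values of named partner and marker genes kept their direction in all 670 other values (78 lost the call) and all 444 with 1 array left out (118 lost it). As above, the direction could not turn in many of the 670.

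Over all rows, the 967 called in Sphk1-/- pups became 93 with only the compared groups, 643 with median centring and 77 with only the high Xist arrays, and the 474 between room air groups became 183 with only the compared groups, 723 with the low filter and 895 with only the high Xist arrays; median centring moved its split to 123 higher and 201 lower, beside 230 and 244. The 2374 between hyperoxic groups became 1178 with only the compared groups and 1446 with only high Xist arrays. Replicate numbers were not taken to pair the pups across the 4 groups: of 18 same-numbered pairs, 9 had a correlation of deviations over 0.1 (median 0.098, against -0.055 for other pairs), and 7 of 12 arrays correlated best with their own number. The 3 pairs of Sphk1-/- HO with Sphk1-/- RA were all over it (0.398, 0.193 and 0.210). With the replicate number as a block, the Aqp1 interaction was 1.07 with an adjusted p of 0.0572, the calls of Piezo1 in Sphk1-/- pups (adjusted p = 0.0504) and Ano1 in room air (0.058) were lost, and the other calls of the 9 genes and of the named partners were kept. The causes of these changes were not tested.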
